A study of Mus musculus with 11 samples.

Results

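Acta2, Actg2, Myh11, Myl9, Tagln, Cnn1, Smtn and Des encode actins, myosin subunits, actin-binding proteins and an intermediate filament protein of smooth muscle cells. These 8 genes were taken by name from the 33188 genes counted in whole mouse testes at P5. All 8 were measured in every library, and all 8 passed the filter on low counts in each comparison. Poly-A RNA was sequenced from 11 testis libraries, 2 labelled wild type (WT) and 3 each labelled Dnmt3C KO, Nrf1 cKO and dKO, and reads were counted per gene. The sample titles name germ cells, while the tissue label and the extraction protocol give whole testes, with somatic cells among the labelled cell types. The design asks how loss of DNMT3C, a DNA methyltransferase of male germ cells, loss of the transcription factor NRF1 in germ cells, and loss of both change the testis transcriptome. Dnmt3C KO mice carried Dnmt3C KO/KO in every cell. Nrf1 cKO mice carried Nrf1 fl/KO with Ddx4-Cre (also called Vasa-Cre), a Cre recombinase driven in germ cells, and the labels write this genotype as Nrf1 KO/KO. Somatic cells of these mice, smooth muscle cells among them, therefore kept a floxed Nrf1 allele beside the KO allele. The dKO mice combined Dnmt3C KO/KO with Nrf1 fl/KO and Ddx4-Cre, and controls were littermates where possible.

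The tubules of the testis are wrapped by peritubular myoid cells, flat smooth muscle-like cells whose contraction moves fluid and sperm along the lumen. In smooth muscle, phosphorylation of the myosin light chain starts contraction, myosin heavy chain pulls on actin filaments, and calponin, transgelin and smoothelin bind these filaments. Smooth muscle cells of testis blood vessels carry the same proteins, so that the 8 genes mark both cell types in whole tissue. Many smooth muscle genes are bound by serum response factor (SRF) at CArG boxes, with myocardin family proteins as coactivators.

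Each library held between 26063590 and 39365841 counts of genes and transposable element (TE) subfamilies. All 10 pairs of replicates differed by more than sampling noise (chi-square of 13.7 to 47.2 per degree of freedom), so that none was treated as a repeat deposit of another. The targeted genes could not check the labels. Dnmt3c was at 3.02 to 4.51 CPM (counts scaled to library size, per 1000000 counts) in Dnmt3C KO and 4.16 to 4.87 CPM in WT, and the sources used here do not give the part that the allele lacks. Nrf1, of which somatic cells kept a floxed allele beside the KO allele, was at 52.2 to 57.9 CPM in Nrf1 cKO and 57.0 to 58.0 CPM in WT. The sum of 13 germ cell markers was 376 to 453 CPM in WT, 357 to 612 CPM in Dnmt3C KO, 116 to 265 CPM in Nrf1 cKO and 164 to 365 CPM in dKO. The sum of 10 Sertoli cell markers was 3739 to 3820 CPM in WT, 3845 to 5112 CPM in Dnmt3C KO, 4441 to 6913 CPM in Nrf1 cKO and 4509 to 5061 CPM in dKO, so that both WT libraries lay below every mutant library, and Nrf1 cKO replicate 3 was the highest. All 10 markers were above 0 in Nrf1 cKO against WT (median log2 fold change 0.48) and in dKO against WT (0.29). In Dnmt3C KO against WT, 5 were above and 5 below 0 (0.09), and none passed in edgeR in these comparisons. Clu alone made up 1984 to 2120 CPM of the sum in WT and 2494 to 2754 CPM in Dnmt3C KO. The part of these differences in the comparisons with WT was not tested.

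Promoter sequences are shown for Acta2 and Myl9 because, of the 5 members searched, only these held a CArG box or a near match to it. The RefSeq table used here held a window, from 250 bases before to 50 bases after the start of the gene, for 5 of the 8 members, Acta2, Myl9, Cnn1, Smtn and Des. It had no entry for Actg2, Myh11 and Tagln. The RefSeq starts differ from those of GENCODE M21, in which the first exon begins 217 bases before the RefSeq start for Acta2 and 44 bases before it for Myl9. For Myl9 the bases ahead of both starts are printed. For Acta2, where both boxes lie inside the first exon of GENCODE, each box is printed with 10 bases on each side. Sequences run 5′ to 3′ on the strand of the gene, in the GRCm38.p6 build, and capitals mark CArG boxes and CArG-like boxes, the latter with 1 core base outside A and T.
Acta2, chr19:34255438-34255467, minus strand: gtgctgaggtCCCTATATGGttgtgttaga
Acta2, chr19:34255388-34255417, minus strand: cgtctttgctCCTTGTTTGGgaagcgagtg
Myl9, chr2:156775214-156775419, plus strand: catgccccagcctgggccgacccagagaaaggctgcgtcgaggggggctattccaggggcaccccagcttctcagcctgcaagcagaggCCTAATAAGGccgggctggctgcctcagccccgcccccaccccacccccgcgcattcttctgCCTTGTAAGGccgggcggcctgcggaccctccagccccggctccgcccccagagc

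The Acta2 window held 2 CArG-like boxes, which began at positions -84 and -34 from the RefSeq start. The Myl9 window held a CArG box at position -161 and a CArG-like box at position -99. Searched on both strands, 1.63% of all 32851 windows of this length held a CArG box and 8.5% held a CArG-like box, and the CArG-like search was added after the exact letters were found in only 1 member. Neither kind was found in the windows of Cnn1, Smtn and Des, although the GENCODE start of Smtn lies 1320 bases before the RefSeq start, so that its window misses the bases ahead of that start. These matches describe letters in a short window and say nothing of binding.

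The 8 genes covered a wide range of levels. Per kb of exon, Acta2 averaged 470 ± 78.1 CPM (SD over 11 libraries) and Myl9 averaged 398 ± 52.6 CPM. Only 80 of 21654 genes had a higher mean than Acta2 on this scale, and 103 had a higher mean than Myl9. Tagln followed at 69.1 ± 15.3 CPM per kb and Myh11 at 42.4 ± 8.44 CPM per kb. Smtn and Des were near each other, at 22.9 ± 3.44 and 20.1 ± 4.96 CPM per kb. Actg2 at 5.27 ± 1.48 CPM per kb and Cnn1 at 3.80 ± 1.72 CPM per kb were the lowest. Each gene was above the next in all 11 libraries, except that Tagln was above Myh11 in 10 libraries and Smtn was above Des in 8. Acta2 supplied between 44.8% and 51.6% of the summed CPM of the 8 genes in every library, while the sum ranged from 1748 CPM in dKO replicate 2 to 2808 CPM in Dnmt3C KO replicate 1.

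**Figure D1:**
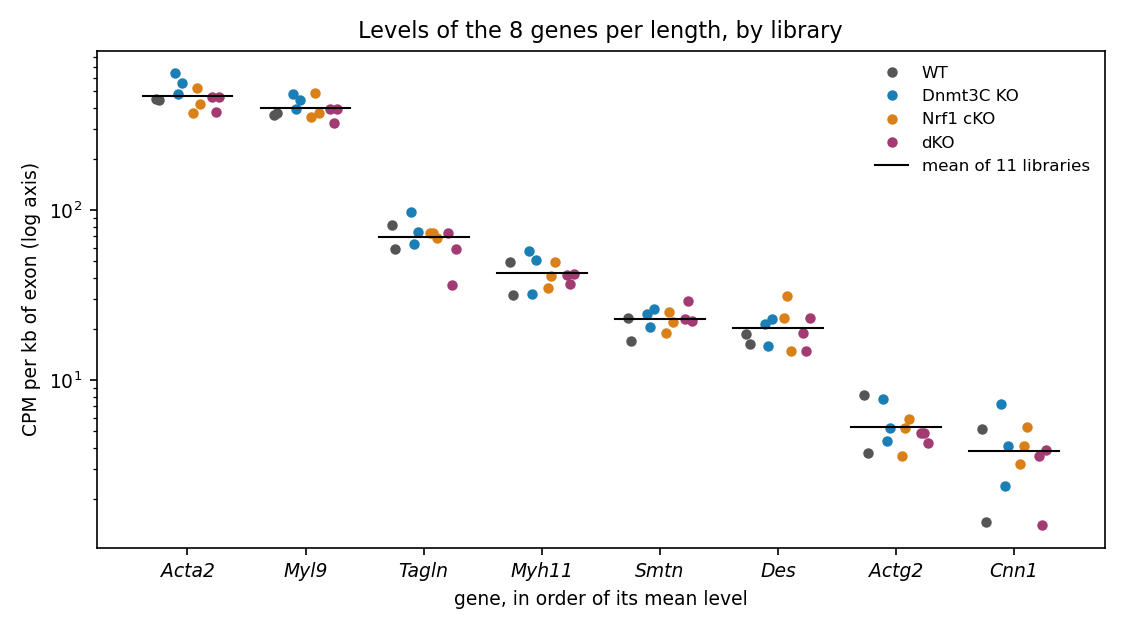
Level of each of the 8 genes per kb of exon (log axis), with 1 point per library coloured by genotype and a line at the mean of the 11 libraries. Acta2 and Myl9 lie far above the other 6 genes, and the order of the means runs from 470 CPM per kb for Acta2 to 3.80 CPM per kb for Cnn1.

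Acta2, on chromosome 19 (34241090-34255590, minus strand, GRCm38), encodes smooth muscle alpha-actin, the actin that defines peritubular myoid cells in sections of the testis. Its level was 984 and 972 CPM in WT, and 1402, 1054 and 1222 CPM in Dnmt3C KO. It was 815, 1143 and 919 CPM in Nrf1 cKO, and 1012, 827 and 1014 CPM in dKO. All 3 Dnmt3C KO libraries were above both WT libraries and above all 3 dKO libraries, while Nrf1 cKO overlapped every other genotype. The depth behind these values was 23742 to 48799 counts of Acta2 per library, and the spread between replicates was 24.7 times the counting error.

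Actg2, on chromosome 6 (83512905-83536265, minus strand), encodes smooth muscle gamma-actin, which is typical of gut and bladder muscle. It was a minor transcript here, at 12.7 and 5.83 CPM in WT and at 12.0, 6.79 and 8.16 CPM in Dnmt3C KO. In Nrf1 cKO it was at 5.59, 8.14 and 9.14 CPM, and in dKO at 7.62, 7.60 and 6.63 CPM. The 2 WT libraries spanned nearly the whole range of the 11, so that every other genotype overlapped WT. Actin genes have near-identical coding sequences, and the authors' counting divided reads among multiple matches, so that some Actg2 counts may be reads of other actins.

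Myh11, on chromosome 16 (14194535-14291372, minus strand), encodes smooth muscle myosin heavy chain, the motor of the contractile filament and a strict marker of the smooth muscle lineage. It was at 377 and 240 CPM in WT and at 435, 243 and 387 CPM in Dnmt3C KO. The Nrf1 cKO libraries held 265, 310 and 375 CPM, and the dKO libraries 318, 278 and 321 CPM. In WT and in Dnmt3C KO the replicate numbered 2 was far below the others, and the dKO libraries lay inside the range of WT.

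Myl9, on chromosome 2 (156775420-156781658, plus strand), encodes the regulatory light chain of smooth muscle myosin, whose phosphorylation switches contraction on. It was at 419 and 434 CPM in WT and at 558, 459 and 516 CPM in Dnmt3C KO. In Nrf1 cKO it was at 411, 571 and 433 CPM, and in dKO at 457, 376 and 457 CPM. Dnmt3C KO lay above WT and above dKO without overlap, although the lowest Dnmt3C KO library and the highest dKO library were at 459.0 and 457.4 CPM. Myl9 varied least of the 8 genes, with a within-genotype SD of 0.18 on the log2 scale.

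Tagln, on chromosome 9 (45929619-45936058, minus strand), opposite Pcsk7, encodes transgelin (SM22), an actin-binding protein that appears early in the smooth muscle lineage. It was at 163 and 118 CPM in WT and at 193, 125 and 149 CPM in Dnmt3C KO. Levels were 146, 146 and 136 CPM in Nrf1 cKO and 146, 72.3 and 118 CPM in dKO. The Nrf1 cKO libraries were close together, and dKO replicate 2 was the lowest of all 11 libraries.

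Cnn1, on chromosome 9 (22099216-22109630, plus strand), encodes calponin 1, which binds actin and slows the myosin ATPase, and which marks mature contractile smooth muscle. It was at 14.1 and 4.03 CPM in WT and at 19.7, 6.56 and 11.2 CPM in Dnmt3C KO. In Nrf1 cKO it was at 8.83, 11.2 and 14.6 CPM, and in dKO at 9.82, 3.83 and 10.6 CPM. Cnn1 was the most variable of the 8 genes, 5.10-fold higher in Dnmt3C KO replicate 1 than in dKO replicate 2. Its counts were 124 to 685 per library and its within-genotype SD of 0.80 was 9.19 times the counting error.

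Smtn, on chromosome 11 (3517523-3540612, minus strand), encodes smoothelin, a protein bound to the actin filaments of contractile smooth muscle. It was at 102 and 73.9 CPM in WT and at 108, 89.6 and 115 CPM in Dnmt3C KO. The 3 Nrf1 cKO libraries had 82.4, 110 and 96.2 CPM, and those of dKO 100.2, 127 and 97.4 CPM. Smtn was highest in dKO replicate 2, the library in which 6 of the other 7 members, all but Actg2, were at their lowest of the genotype.

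Des, on chromosome 1 (75360329-75368579, plus strand), encodes desmin, the intermediate filament of muscle cells. It was at 70.2 and 61.1 CPM in WT and at 80.6, 59.5 and 86.1 CPM in Dnmt3C KO. In Nrf1 cKO it was at 87.3, 118 and 55.9 CPM, and in dKO at 71.2, 55.6 and 86.7 CPM. The 3 Nrf1 cKO libraries spanned nearly the whole range of the 11, and Des was lowest in that genotype in replicate 3, the library with the most Sertoli cell marker RNA. The part of that library's composition in its Des level was not tested.

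**Figure D2:**
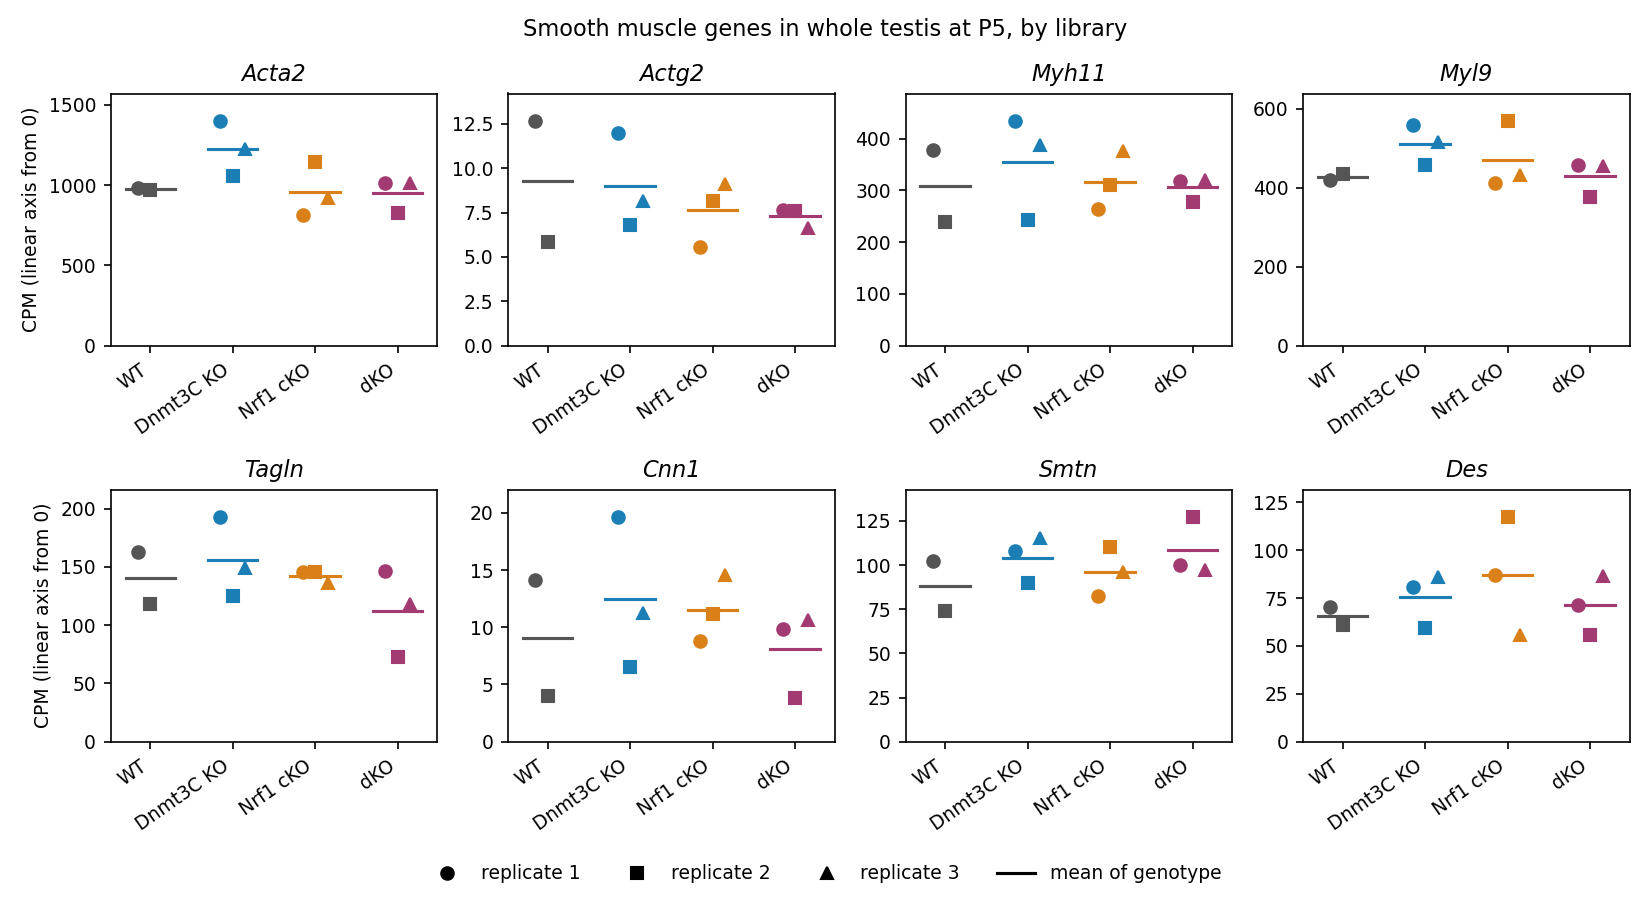
CPM of each of the 8 genes (linear axes from 0) by genotype, with 1 symbol per library and its replicate number, and a line at the mean of the genotype. Acta2 and Myl9 in Dnmt3C KO lie above WT and dKO without overlap, and the replicates of Cnn1 lie as far apart within WT, Dnmt3C KO and dKO as the genotypes do.

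The spread between libraries of the same genotype differed among the 8 genes. The SD of the 4 genotype means on the log2 CPM scale was smaller than the within-genotype SD for all 8 genes. The same held for 85.36% of the 10871 genes with a mean of at least 10 CPM. A mean over the libraries of a genotype varies less than a single library. The SD of the means thus tends to be smaller even without a genotype effect, and no conclusion is drawn from this order. The within-genotype SD had a median of 0.34 over the 8 members, against 0.18 over those 10871 genes. It was 0.80 for Cnn1, 0.43 for Actg2, 0.37 for Des, 0.35 for Tagln, 0.33 for Myh11, 0.23 for Smtn, 0.19 for Acta2 and 0.18 for Myl9. Acta2 and Myl9 were the most even between replicates, and lay below the medians of genes at like levels, 0.23 and 0.20. The other members lay above such medians, which were 0.24 for Cnn1, 0.27 for Actg2 and 0.17 for Des. They were 0.17 for Tagln, 0.19 for Myh11 and 0.17 for Smtn.

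Most members deviated in the same libraries. In Dnmt3C KO replicate 2 all 8 members were at the lowest level of their genotype, and in Dnmt3C KO replicate 1 6 of them were at the highest. In WT replicate 2, 7 of the 8 were below WT replicate 1, with Myl9 the exception. In dKO replicate 2, 6 of the 8 were at the lowest level of their genotype. The median deviation of the 8 genes from the genotype mean was 0.27 on the log2 scale in Dnmt3C KO replicate 1 and -0.31 in replicate 2, and was -0.19 in dKO replicate 2. Among the Nrf1 cKO libraries, 6 members were lowest in replicate 1 (median deviation -0.22), 5 were highest and none was lowest in replicate 2 (0.16), and 3 were highest and 2 lowest in replicate 3 (-0.02). Most members thus moved together in these libraries, though not in Nrf1 cKO replicate 3, and Smtn went the other way in dKO replicate 2. How many of all genes deviated in this way was not counted. Fewer smooth muscle cells and less RNA per cell cannot be told apart in whole testes.

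**Figure D3:**
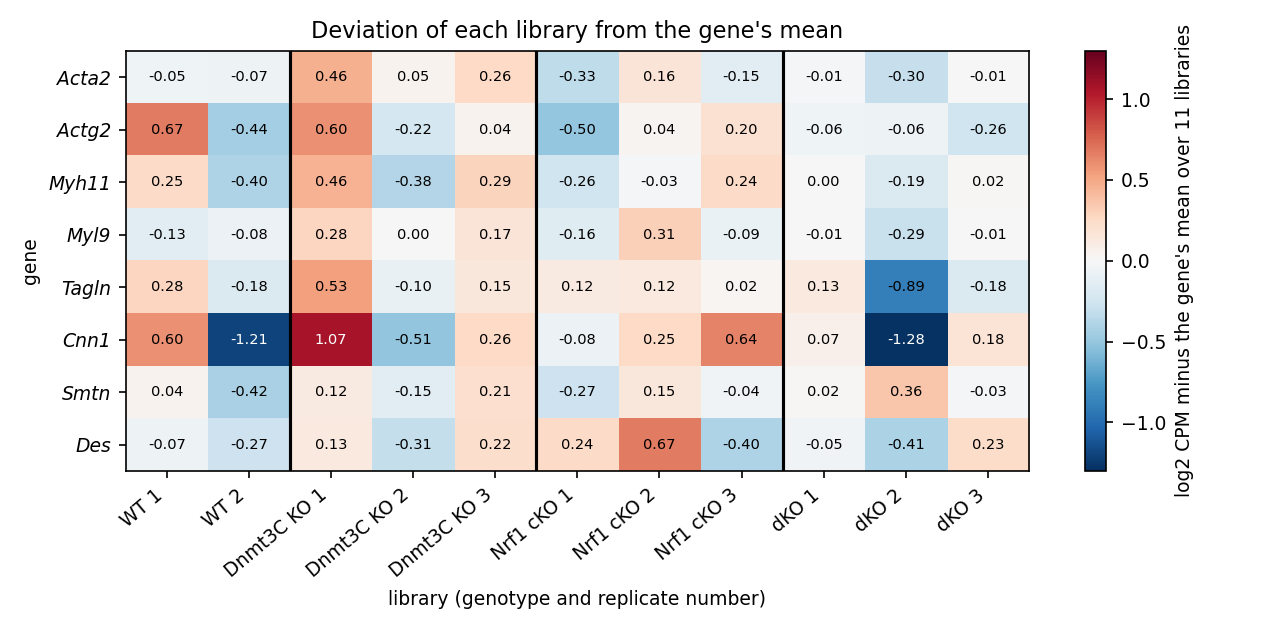
Log2 CPM of each gene in each library minus the mean of that gene over the 11 libraries, with genotypes divided by lines. WT replicate 2 and dKO replicate 2 are low for most genes, Dnmt3C KO replicate 1 is high for all 8, and Cnn1 ranges from -1.28 to 1.07.

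WT replicate 2 also stood apart in base composition. The genes of high GC content (above 52.85%) minus those of low GC content (below 46.57%), each relative to its mean over all libraries, were at -0.34 on the log2 scale in that library, and the other 10 libraries lay between -0.12 and 0.22. By gene length, long genes minus short genes were at 0.27 in WT replicate 1 and 0.22 in dKO replicate 2, the highest of the 11 libraries, and at -0.12 in WT replicate 2. The GC content of the longest transcript was 60.1% for Smtn, at the 96.3 percentile of genes, 56.7% for Myl9 and 56.5% for Des, and 49.6% for Acta2. WT had only 2 libraries, so this library bears on every comparison with WT. Without it, still no member passed in edgeR in those comparisons, Smtn moved from 0.24 to 0.04 on the log2 scale in Dnmt3C KO against WT, and Actg2 moved from -0.35 to -0.80 in dKO against WT.

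By profile over the 11 libraries, Mylk was nearest to the mean of the 8 genes of 10864 genes compared. Mylk encodes the myosin light chain kinase, which phosphorylates the light chain that Myl9 encodes. The distance, as the root mean square difference of centred log2 CPM, was 0.10 for Mylk, against a median of 0.31 over the genes compared. Among the members themselves it ranged from 0.13 for Myh11 to 0.48 for Cnn1. Mylk was at 407 and 279 CPM in WT, at 462, 282 and 389 CPM in Dnmt3C KO, at 343, 383 and 377 CPM in Nrf1 cKO and at 347, 320 and 371 CPM in dKO. Its low level in WT replicate 2 and in Dnmt3C KO replicate 2 follows from its choice by nearness to the members over these same libraries. The next nearest were Tmem63a (0.10), Slc43a2 (0.11), Zfr2 (0.11) and Gfpt2 (0.11).

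Whether Dnmt3C loss alone altered the smooth muscle genes was asked by comparing Dnmt3C KO with WT. No difference passed the test. Acta2 was 1.25-fold higher (log2 fold change 0.33, SE 0.19) and Myl9 1.20-fold higher (0.26, SE 0.16), and 7 of 8 members were above 0, with Actg2 the exception. The median log2 fold change of the 8 was 0.22, against 0.0053 over all features tested. Acta2 and Myl9 did not overlap between the groups, 2 of 8 members, where 21.3% of all features did not, which is near the same share. None of the 8 passed an adjusted p of 0.01 in the edgeR quasi-likelihood test with Benjamini-Hochberg adjustment, in which 0% of 21664 features passed. At an unadjusted edgeR p under 0.05 there was also no member, against 5.41% of features. The smallest edgeR p was 0.112, for Acta2, with an adjusted p of 0.934. DESeq2 called none of the 8 and 0.1% of its features, and gave Acta2 alone an unadjusted p under 0.05, 0.0414, as it did 3.55% of features. The 95% interval of the Acta2 difference ran from 0.94-fold to 1.67-fold, that of Myl9 from 0.93-fold to 1.54-fold, and that of Cnn1 from 0.64-fold to 2.92-fold. Smtn and Des had log2 fold changes of 0.24 (SE 0.18) and 0.20 (SE 0.17). That of Smtn ranged from 0.04 without WT replicate 2 to 0.50 without WT replicate 1, and that of Des from 0.09 without Dnmt3C KO replicate 3 to 0.34 without Dnmt3C KO replicate 2. The extremes were Cnn1 at 0.45 (SE 0.50) and Actg2 at -0.05 (SE 0.33), both within their SE.

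Nrf1 cKO was compared with WT in the same way. The KO allele in its somatic cells cannot be told apart here from the deletion in germ cells. The 8 log2 fold changes ran from -0.30 for Actg2 to 0.40 for Des, with a median of 0.07 against 0.0024 over all features. The ranges of all 8 members overlapped, where 21.3% of features did not. No member passed in edgeR (0% of 21296 features), and none was under an unadjusted p of 0.05 (5.75% of features) or was called by DESeq2 (0.108%). Des, at 0.40 (SE 0.28), had the smallest edgeR p, 0.182, with an adjusted p of 0.956 and an interval from 0.86-fold to 2.02-fold, and fell to 0.12 without Nrf1 cKO replicate 2, the library at 118 CPM. Acta2 was at -0.04 with an interval from 0.69-fold to 1.38-fold. These intervals are too wide to show that the genes were at equal levels.

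Between dKO and WT no member passed the test either. Log2 fold changes ran from -0.35 for Actg2 (SE 0.32) to 0.30 for Smtn (SE 0.20), with a median of -0.03 against 0.0062 over all features, and Tagln was at -0.33 (SE 0.28). All 8 members overlapped, where 13.2% of features did not. No member passed in edgeR (0% of 21488 features), none was under an unadjusted p of 0.05 (1.74% of features), and DESeq2 called none (0.012%). The smallest edgeR p was 0.171, for Smtn, with an adjusted p of 1.00. The 95% interval ran from -1.36 to 1.02 on the log2 scale for Cnn1 and from -0.95 to 0.30 for Tagln. Leaving out WT replicate 1 brought Tagln to -0.08, and leaving out WT replicate 2 brought Smtn to 0.09.

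The effect of adding Nrf1 deletion to Dnmt3C loss was asked by dKO against Dnmt3C KO, and no member passed the threshold. In dKO against Dnmt3C KO, 7 of 8 members were below 0, with Smtn the exception at 0.05, and the median log2 fold change was -0.28 against 0.0166 over all features. Acta2 was at -0.37 (SE 0.16, 95% interval -0.72 to -0.02) and Myl9 at -0.25 (SE 0.13, interval -0.55 to 0.05), and both did not overlap between the groups, 2 of 8 members against 13.6% of features. Tagln was at -0.48 (SE 0.24), Cnn1 at -0.63 (SE 0.43), Actg2 at -0.30 (SE 0.23) and Myh11 at -0.22 (SE 0.20). Without Dnmt3C KO replicate 1, these 4 values were -0.29 for Tagln, -0.13 for Cnn1, -0.04 for Actg2 and -0.05 for Myh11, and Acta2 was at -0.26. No member passed an adjusted p of 0.01 in edgeR (0% of 20783 features). Acta2 alone was under an unadjusted edgeR p of 0.05, as were 7.18% of features. Its edgeR p was 0.0398 and its edgeR adjusted p 0.675. DESeq2 called no member (0.0704% of its features) and gave 2 members an unadjusted p under 0.05, as it did 4.75% of features, with 0.0136 for Acta2 and 0.0331 for Tagln. This comparison shares the Dnmt3C KO libraries with that of Dnmt3C KO and WT, so that high values in those libraries enter both. None of the markers of other cells passed in edgeR here, and all 13 germ cell markers were below 0 (median -0.78, 6 under an unadjusted edgeR p of 0.05), as were 5 of 6 Leydig cell markers (-0.20, 2 under 0.05), and 8 of 10 Sertoli cell markers were above 0 (0.27, 2 under 0.05). Their part in the members' values was not tested.

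Adding Dnmt3C loss to Nrf1 deletion was asked by dKO against Nrf1 cKO. Here 7 of 8 members were below 0, with Smtn at 0.17 (SE 0.16), and the median was -0.10 against -0.0092 over all features. Cnn1 was at -0.51 (SE 0.36), Tagln at -0.34 (SE 0.22) and Des at -0.29 (SE 0.26), while Acta2 was at -0.01 with an interval from 0.75-fold to 1.32-fold. Without dKO replicate 2, Cnn1 was at -0.16, Tagln at -0.10 and Smtn at 0.05, and without Nrf1 cKO replicate 2, Des was at -0.01. All members overlapped, where 7.43% of features did not, and no member passed in edgeR (0% of 20381 features), at an unadjusted edgeR p under 0.05 (2.81%) or in DESeq2 (0.0241%). Of the germ cell markers, 12 of 13 were above 0 in this comparison (median 0.59). All 10 Sertoli cell markers (-0.16), all 10 endothelial markers (-0.76) and 5 of 6 Leydig cell markers (-0.33) were below 0. Their part in the members' values was not tested.

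Of the single mutants, Dnmt3C KO was above Nrf1 cKO in 7 of 8 members, with Des the exception at -0.20 (SE 0.25). The median was 0.13 against -0.0142 over all features, and Acta2 was 1.28-fold higher (log2 fold change 0.36, SE 0.17, 95% interval -0.02 to 0.74). In edgeR its p was 0.0595 and its adjusted p 0.494. All 8 members overlapped, where 18.2% of features did not. No member passed in edgeR (0% of 20642 features) or under an unadjusted edgeR p of 0.05 (10.6% of features), and DESeq2 called none (0.848%). Acta2 had a DESeq2 unadjusted p of 0.0373, the only member under 0.05, against 7.26% of features. All 13 germ cell markers were above 0 in this comparison (median 1.47, 9 under an unadjusted edgeR p of 0.05). All 10 Sertoli cell markers (-0.45) and all 10 endothelial markers (-0.71) were below 0, and of the Leydig cell markers 3 were above and 3 below. Their part in the members' values was not tested.

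**Figure D4:**
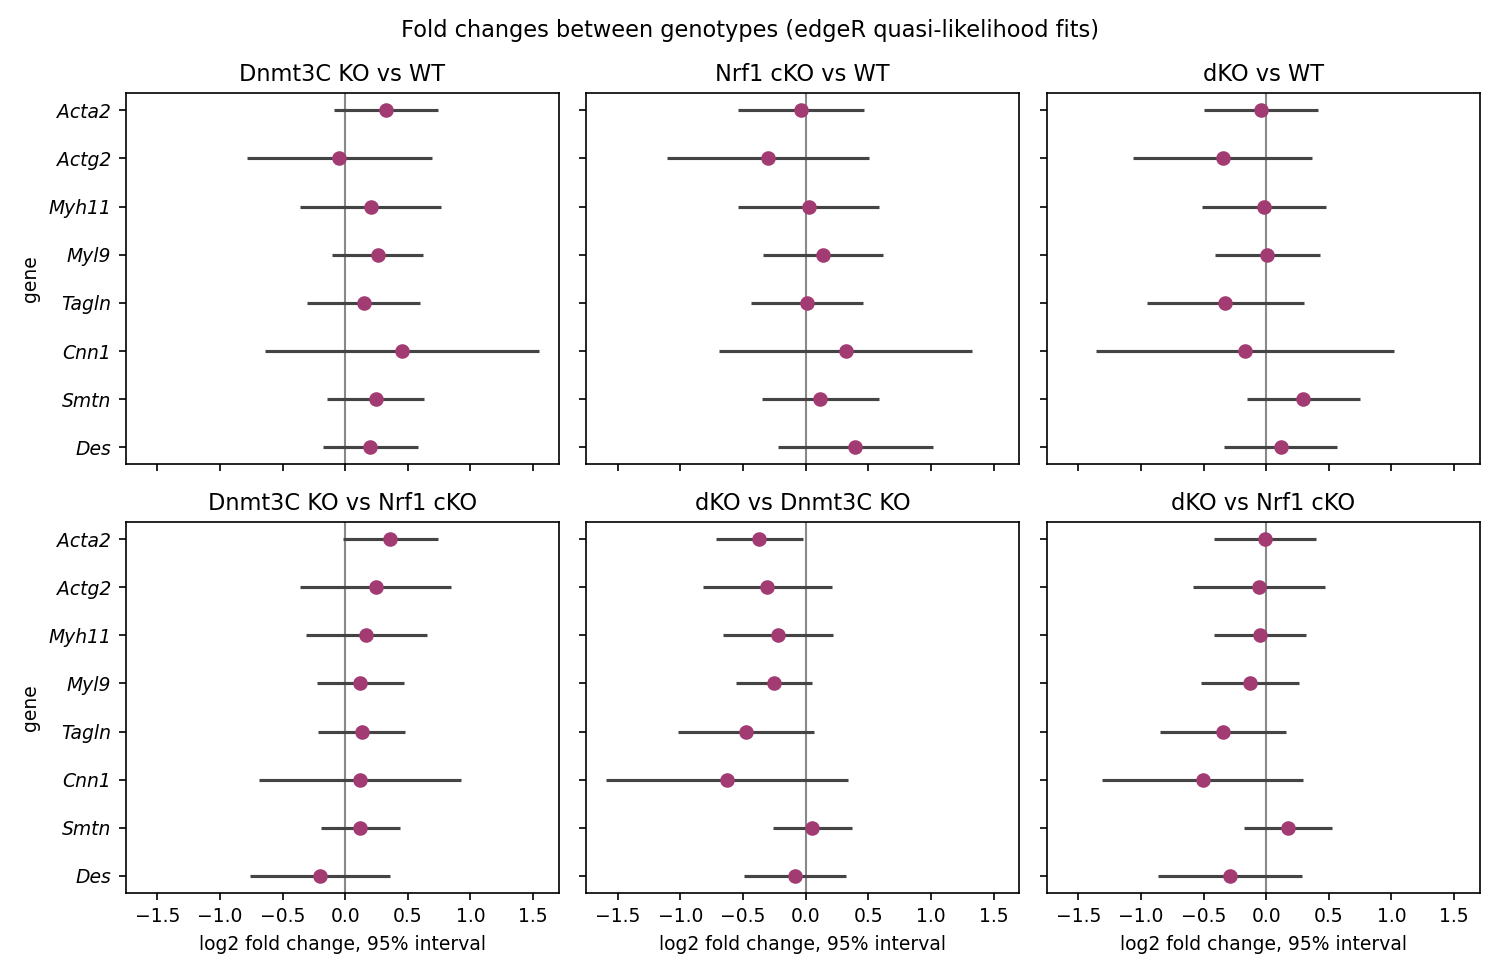
Log2 fold change of each gene between each pair of genotypes (points) with its 95% interval (lines) from edgeR quasi-likelihood fits. The interval of Acta2 in dKO against Dnmt3C KO, -0.72 to -0.02, is the only interval that leaves out 0, and the intervals of Cnn1 are the widest.

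Over all 11 libraries, the test of any difference among the 4 genotypes passed for no member, with edgeR adjusted p-values from 0.910 to 0.981 (0% of 22594 features passed). No member was under an unadjusted edgeR p of 0.05 (6.06% of features), and DESeq2 called none (0.531%). The effect of Nrf1 deletion with Dnmt3C status as a covariate compared 6 libraries with the deletion and 5 without. It was below 0 for 6 of 8 members, with Des the highest at 0.13, and with a median of -0.15 against 0.0012 over all features. Acta2 was at -0.22 (SE 0.13), Tagln at -0.26 (SE 0.18) and Actg2 at -0.29 (SE 0.21). Tagln was at -0.11 without dKO replicate 2, and Actg2 at -0.09 without WT replicate 1. None passed in edgeR (0.00443% of features), none was under an unadjusted edgeR p of 0.05 (7.87%), and DESeq2 called none (0.156%). The effect of Dnmt3C loss with Nrf1 status as a covariate had a median of -0.0074 against -0.0048 over all features, with 4 members above and 4 below 0, the lowest being Tagln at -0.13. Smtn at 0.20 (SE 0.12) and Acta2 at 0.14 (SE 0.13) were the members beyond their SE, at 0.12 without WT replicate 2 and 0.08 without Dnmt3C KO replicate 1 in this order, none passed in edgeR (0.00443% of features) or under an unadjusted edgeR p of 0.05 (2.9%), and DESeq2 called none (0.073%).

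The interaction asks whether Dnmt3C loss had another effect with Nrf1 deleted than with Nrf1 intact. All 8 members were below 0, with a median log2 difference of -0.37 against -0.0093 over all features, from -0.96 for Cnn1 (SE 0.73) to -0.02 for Actg2. Tagln was at -0.50 (SE 0.34), Des at -0.49 (SE 0.36), Myl9 at -0.39 (SE 0.23) and Acta2 at -0.34 (SE 0.25). Without Nrf1 cKO replicate 2 the values were -0.21 for Des, -0.23 for Myl9 and -0.19 for Acta2, and Tagln was at -0.28 without dKO replicate 2. No member passed in edgeR, where adjusted p-values ran from 0.903 to 0.998 (0% of 22594 features passed), none was under an unadjusted edgeR p of 0.05 (5.55%), and DESeq2 called none (0%). Since members deviated together in single libraries, the shared sign of the 8 values is not 8 separate observations. Other lists shared this sign: all 10 endothelial markers (median -0.69) and all 6 Leydig cell markers (-0.50) were below 0 as well, while 11 of 13 germ cell markers were above 0 (0.54).

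Other genes of the contractile apparatus were described from a list of 20. None passed an adjusted p of 0.01 in any of the 10 edgeR comparisons or in DESeq2, and 0 to 4 of them per comparison were under an unadjusted edgeR p of 0.05, where 1.74% to 10.6% of all features were. Flna, an actin crosslinker, was the most abundant at 941 to 1525 CPM over the libraries, followed by Cnn3 at 435 to 568 CPM, Myl6 at 386 to 547 CPM and Tpm1 at 382 to 532 CPM. These 4 genes are also used by many cells outside muscle. The median log2 fold change of the list was 0.07 in Dnmt3C KO against WT and -0.10 in dKO against Dnmt3C KO, smaller than the medians of the 8 members. It was larger in size than that of the members in Nrf1 cKO against WT (0.12 against 0.07) and in dKO against Nrf1 cKO (-0.12 against -0.10). In dKO against Dnmt3C KO, 4 of the 20 were lower and none was higher at an unadjusted edgeR p under 0.05, against 7.18% of all features in either direction.

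The list of 10 SRF and myocardin family regulators held no gene that passed in edgeR or DESeq2 in any comparison, and 0 to 2 genes per comparison under an unadjusted edgeR p of 0.05, again beside 1.74% to 10.6% of features. The most abundant were Fhl2 at 84.3 to 174 CPM, Csrp2 at 64.3 to 102 CPM, Tgfb1i1 at 61.8 to 108 CPM and Mrtfb, a coactivator of SRF, at 45.7 to 66.8 CPM. Fhl2, a LIM protein that binds SRF, was highest in Dnmt3C KO replicate 1, as were Acta2, Myh11, Tagln and Cnn1. The summed level of the list was 454 to 612 CPM, lowest in WT replicate 2 and highest in Dnmt3C KO replicate 1. Its median log2 fold change was 0.19 in Dnmt3C KO against WT and -0.08 in dKO against Dnmt3C KO.

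Markers of cells that could share or dilute the smooth muscle signal were summed in every library. The 10 markers of pericytes and vascular mural cells were at 487 to 575 CPM in WT, 428 to 557 CPM in Dnmt3C KO, 397 to 664 CPM in Nrf1 cKO and 440 to 582 CPM in dKO, so that the genotypes overlapped and Dnmt3C KO was not above WT. The 10 endothelial markers were at 317 to 322 CPM in WT, 281 to 347 CPM in Dnmt3C KO, 301 to 494 CPM in Nrf1 cKO and 265 to 368 CPM in dKO. Of this sum, Cdh5 alone was 205 and 197 CPM in WT. All 10 were above 0 in Nrf1 cKO against WT (median log2 fold change 0.57), with 4 under an unadjusted edgeR p of 0.05 (5.75% of features), and all 10 were below 0 in Dnmt3C KO against Nrf1 cKO (-0.71, with 5 beside 10.6%) and in dKO against Nrf1 cKO (-0.76, with 3 beside 2.81%). The endothelial sum was lowest in dKO replicate 2, where 6 of the 8 members were also lowest of their genotype. The 10 skeletal muscle markers summed to 13.8 to 19.3 CPM and 9 of them passed the filter on low counts, which is near 0 beside the 8 members. The 7 mesothelium markers summed to 4.16 to 30.8 CPM and the 7 markers of Wolffian duct epithelium to 5.27 to 30.7 CPM. The latter were highest in Nrf1 cKO replicate 3. Leydig cell markers (6 genes) ranged from 759 CPM in dKO replicate 2 to 1762 CPM in Nrf1 cKO replicate 1. None of these lists had a gene that passed in edgeR. DESeq2 called 1 mesothelium gene in Dnmt3C KO against Nrf1 cKO and 1 Leydig cell gene in Dnmt3C KO against WT, and no mural, endothelial, skeletal muscle or Wolffian duct gene. Of the 13 germ cell markers, DESeq2 called 6 in Dnmt3C KO against Nrf1 cKO (0.848% of its features) and 1 in Nrf1 cKO against WT (0.108%). It called 4 of them in the test of any difference among the genotypes (0.531%) and 2 for the effect of Nrf1 deletion (0.156%). The part of tissue composition in the levels of the 8 members was not tested.

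**Figure D5:**
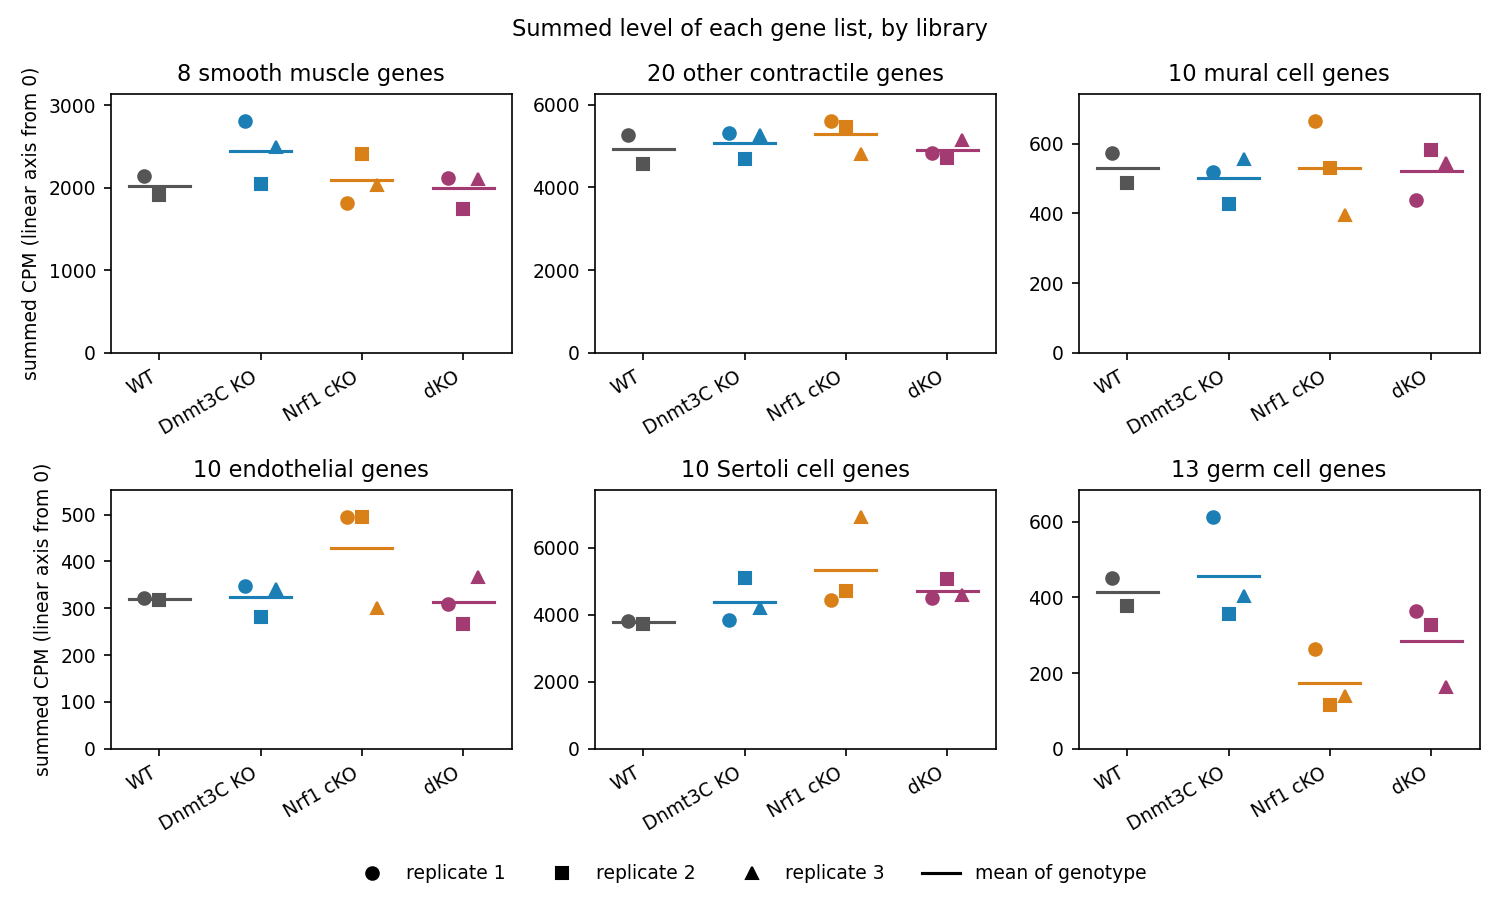
Summed CPM of the 8 smooth muscle genes and of 5 lists of other genes (linear axes from 0) by genotype, with 1 symbol per library and a line at the mean of the genotype. The smooth muscle sum reaches 2808 CPM in Dnmt3C KO replicate 1 and overlaps between all genotypes, and the germ cell sum is lowest in Nrf1 cKO, at 116 to 265 CPM.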

How the data were processed

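Whole testes at P5 were sequenced as 11 poly-A RNA libraries, grouped by the genotype in their labels. Per the study's methods and the submitters' processing notes, the authors mapped reads to GRCm38 with STAR 2.7.3a, ran TEtranscripts in stranded multi-mapping mode to count genes and TE subfamilies, and deposited raw counts for each pair of genotypes. The same tables hold the authors' mean levels, log2 fold changes and p-values from DESeq2 1.44.0, which were not used. A further table of TE copies holds no genes and was not used.

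The counts were identical in every table that holds a library, and joining the 6 tables gave 33188 genes and 1088 TE subfamilies. The multi-mapping mode can move reads between near-identical genes, such as the actins, and whole-tissue counts mix cell types. edgeR 4.0.16 in R 4.3.3 was used with filterByExpr, TMM factors, quasi-likelihood F tests and Benjamini-Hochberg adjustment over all features at 0.01, on the libraries of the 2 genotypes compared or on all 11. Standard errors were derived from the fold change and its F statistic, and 95% intervals use the total degrees of freedom of the fit. CPM were scaled by TMM factors (prior count 1 for log2 CPM). DESeq2 1.42.0 was an alternative test, and the others were its size factors, no filter, an adjusted p under 0.05, genes only, the replicate number as a block, a joint fit of the genotypes, and leaving out each library. The fits were also run on simulated counts with changes larger than those of the members. That run says nothing of changes as small as theirs, and no outcome of it is used here. Exon lengths and positions were taken from GENCODE M21, an earlier release than that of the authors, and promoters from RefSeq. No source says that replicates were separate litters, so that p-values measure the spread between these libraries, and counting errors cover reads only.

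The rule for named genes was the 8 members in every library and comparison, list genes past the threshold or else up to 4 per list with the highest mean CPM, and the 5 genes nearest in profile to the members. Fold changes are given singly where they exceed their SE or are the extremes of a comparison. Acta2 is also given in Nrf1 cKO against WT and in dKO against Nrf1 cKO, where it was within its SE. The members, lists and tests were chosen with earlier results of these data known.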

Additional observations from a re-analysis of the deposited data

Results flagged for a closer look

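For Myl9, every Dnmt3C KO library was above the WT mean, by 0.11 to 0.39 on the log2 CPM scale, while every dKO library was below the Nrf1 cKO mean, by values from -0.31 to -0.03. The mean differences of these 2 contrasts lay -0.38 apart. The fitted interaction of Myl9 was -0.39 (SE 0.23) with an edgeR adjusted p of 0.903, so that the difference did not pass the test.

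For Cnn1, every Nrf1 cKO library was above the WT mean, by 0.22 to 0.95 on the log2 CPM scale, while every dKO library was below the Dnmt3C KO mean, by values from -1.56 to -0.09. The mean differences lay -1.20 apart. The fitted interaction of Cnn1 was -0.96 (SE 0.73) with an edgeR adjusted p of 0.917, and the WT mean rests on 2 libraries at 14.1 and 4.03 CPM.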

How the results depend on the processing

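The number of members past the threshold was 0 in all 143 recomputed counts, which covered the 10 comparisons under 7 alternatives on all libraries and without each of the 11 libraries, where these apply. The smallest adjusted p of any member was 0.173, for Des in Nrf1 cKO against WT with the replicate block, where the log2 fold change was 0.62 in place of 0.40. Replicate numbers are those of the sample titles, from which the column names of the count tables differ for some Dnmt3C KO and dKO libraries. Same-numbered libraries did not deviate together (r from -0.23 to 0.22, and 3 of 11 libraries matched their own number best), so the numbers were not used to pair libraries. The replicate block gave 0 members called in each comparison and turned the sign of 4 fold changes that were within their SE. In dKO against Dnmt3C KO, the unadjusted edgeR p under the block was 0.00286 for Tagln, 0.0171 for Cnn1 and 0.0284 for Acta2, with adjusted p-values of 0.237, 0.361 and 0.411. For the 8 members, replicate 2 had a median deviation of -0.23 in WT, -0.31 in Dnmt3C KO, -0.19 in dKO and 0.16 in Nrf1 cKO.

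Of 29 fold changes beyond their SE, 1 changed sign when a library was left out: Actg2 in dKO against WT ranged from -0.80 without WT replicate 2 to 0.31 without WT replicate 1. Of the other 43, 36 changed sign without some library. Acta2 in dKO against Dnmt3C KO stayed between -0.47 and -0.26, with an unadjusted p under 0.05 in 9 of 12 alternatives and up to 0.161, without Dnmt3C KO replicate 1. Cnn1 in the interaction ranged from -2.15 to -0.34, the latter without WT replicate 2. Where a WT library was left out, the lone WT library was assumed to vary like the other genotypes.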
